A study of Mus musculus with 15 samples.

Results

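The clustered protocadherins are cell surface adhesion proteins encoded in 3 neighbouring gene clusters, alpha, beta and gamma, on mouse chromosome 18. The genes were chosen by name, as every gene of the deposited table whose symbol begins with Pcdha, Pcdhb, Pcdhga, Pcdhgb or Pcdhgc and a number, or with Pcdhac and a number. This gave 59 of the 24831 gene names in the table, 15 in the alpha cluster, 22 in the beta cluster and 22 in the gamma cluster. The rule uses no measured value, although the group of genes was taken up with earlier results of these data known. All 59 had a mean of at least 1 RPKM (read density over a transcript, relative to its length and to all reads mapped) over the groups, as did 17481 of all names.

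Total RNA was sequenced from hypothalamus taken at postnatal day 15 from mice of the outbred CD-1 stock, in a study titled for thyroid hormone effects that reach the F2 generation. The 15 samples formed the groups PGM, PGF, HM, HF and Control, with 3 biological replicates each. What these codes stand for is not spelled out in the labels, which state no treatment, genotype or sex for any group. The table held the authors' mean of each group. Without values per sample there is no replicate check, no SD and no p-value for any difference, and the sequencing depth is unknown.

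Each neuron is known to express its own combination of clustered protocadherins, and cells that display the same combination recognise each other through their extracellular domains. This identity is known for self-avoidance, in which sister branches of a neuron keep apart, and for the spacing of axons, and the gamma genes are also known for the survival of interneurons. Each alpha and gamma gene has its own long first exon, which encodes the extracellular and membrane-spanning domains, spliced to short exons that are common to the whole cluster and encode a shared cytoplasmic end. The beta genes are encoded in a single exon and lack such a shared end. The last genes of the alpha and gamma clusters, called C-type, are expressed by most neurons of a type, whereas the promoters of the other genes are chosen at random from cell to cell with the help of the insulator protein CTCF and cohesin.

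In the RefSeq annotation of GRCm38.p6, the assembly of the build mm10, 58 of the 59 genes were found. The alpha genes ran from 36930285 to 37188897 on chromosome 18, the beta genes from 37264998 to 37521419 and the gamma genes from 37661775 to 37841873. Pcdha4-g, a separate name in the table, had no match. In GENCODE M21 transcripts, the 3 shared exons took 2860 bases in the alpha cluster, between 48.6% and 54.9% of each transcript. In the gamma cluster 3 shared exons took 2119 bases in most transcripts, between 41.7% and 45.9%. The beta genes shared no exon in this way, although Pcdhb21 and Pcdhb22 overlapped on the same strand. No nucleotide sequence of these genes is printed here.

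**Figure D1:**
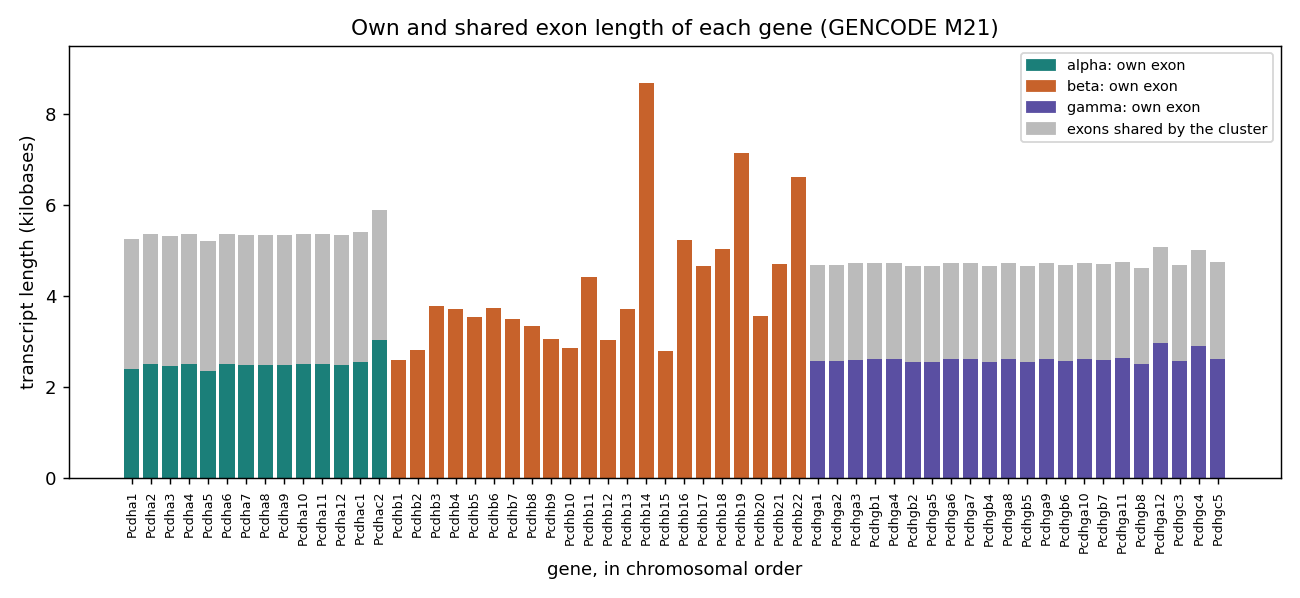
Stacked bars give the length in kilobases of 1 representative GENCODE M21 transcript for each of 58 clustered protocadherin genes in chromosomal order, with the gene's own exon in colour and the exons common to its cluster in grey. The grey part covers 48.6% to 54.9% of alpha transcripts, 41.7% to 45.9% of gamma transcripts and none of the beta transcripts, for which a transcript of 1 exon was preferred.

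The shared exons matter for reading the values. A read from a shared exon belongs to no single gene of its cluster, and the sources used here do not say how such reads were counted. The own exons also resembled each other. Of the 50-base words in the own exon of an alpha gene, a median of 14.7% occurred in another clustered protocadherin gene, against 4.26% for beta genes and 0.730% for gamma genes. The highest share was 23.4% in Pcdha7 among alpha genes and 17.9% in Pcdhgb2 among gamma genes, and Pcdhb12 led the beta genes. The C-type genes Pcdhac1, Pcdhac2, Pcdhgc3, Pcdhgc4 and Pcdhgc5 and the beta gene Pcdhb1 were among those with none. Exons of 4 alpha, 1 beta and 8 gamma genes overlapped a gene on the opposite strand in GENCODE M21, and whether strand was used in counting is not given, so their values may include antisense reads. Values of alpha and gamma genes as single genes are therefore uncertain.

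The deposited values differed more between clusters than between groups. The median gamma gene was at 149.6 RPKM in PGM, 140.6 in PGF, 142.2 in HM, 154.1 in HF and 153.9 in Control. The median alpha gene was at 32.2 RPKM in PGM, 33.9 in PGF, 32.2 in HM, 34.0 in HF and 34.8 in Control. The median beta gene was at 6.71 RPKM in PGM, 6.28 in PGF, 6.56 in HM, 7.27 in HF and 6.55 in Control. The clusters kept the order gamma, alpha, beta in every group, and all 22 gamma genes lay above the highest alpha value. Among all genes kept, where the group medians ran from 18.4 to 19.1 RPKM, gamma genes ranked between the 92.2 and 95.3 percentiles, alpha genes between 61.4 and 78.9, and beta genes between 3.14 and 41.2. Alpha and gamma values may include reads of exons shared by their whole cluster, which beta genes lack. The order and the ranks of the clusters are therefore those of the deposited values and may not be those of expression per gene.

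**Figure D2:**
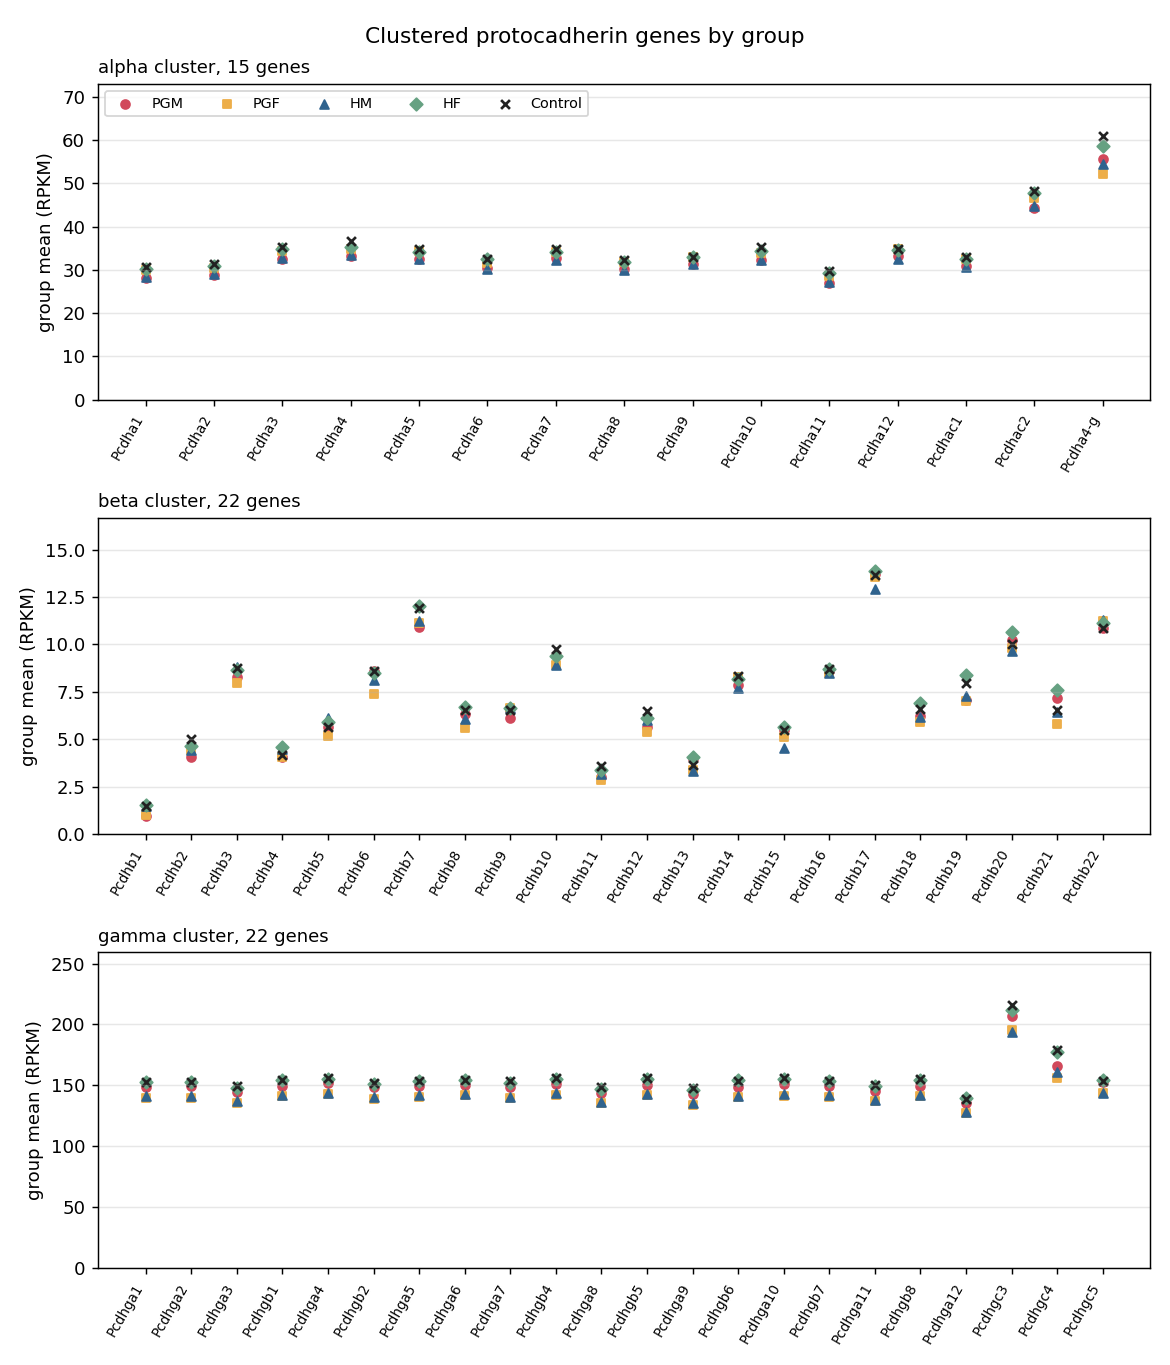
Points give the mean RPKM of the groups PGM, PGF, HM, HF and Control for each of the 59 genes, with the 3 clusters in separate panels, genes in chromosomal order and Pcdha4-g last among the alpha genes, since it has no position. The gamma A and B genes lie on nearly the same level near 150 RPKM, the alpha genes near 33 with Pcdhac2 and Pcdha4-g above them, and the beta genes scatter between 0.97 and 13.9.

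Within the gamma cluster the values of single genes were close together. The 12 gamma A genes ran from 139.2 to 156.1 RPKM in Control, with a coefficient of variation of 3.11%, and the 7 gamma B genes from 152.4 to 156.5 with 0.961%. Pcdhga12 was the lowest gamma gene, with 135.8 RPKM in PGM, 127.3 in PGF, 128.3 in HM, 139.4 in HF and 139.2 in Control. It also had the longest own exon of the cluster, 2961 bases. When the mean RPKM of each gene was multiplied by its annotated length in kilobases, the coefficient of variation over the 19 gamma A and B genes was 1.69%, against 2.71% for RPKM itself. In that product, which is proportional to the reads assigned, Pcdhga12 was at 680.7 and lay within the range of the other 18 genes. The lengths come from GENCODE and may differ from the transcript models the authors used.

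Among the other gamma A genes the highest was Pcdhga4, with 151.8 RPKM in PGM, 143.1 in PGF, 144.0 in HM, 155.7 in HF and 156.1 in Control. In gamma B the highest was Pcdhgb4, at 151.5 RPKM in PGM, 142.5 in PGF, 143.7 in HM, 155.6 in HF and 156.5 in Control. The lowest gamma B gene by its mean over the groups was Pcdhgb2, at 148.6 RPKM in PGM, 139.2 in PGF, 140.5 in HM, 151.1 in HF and 152.4 in Control. These genes encode gamma protocadherins of the randomly chosen kind, and in each of them PGF and HM were the lowest groups and HF and Control the highest.

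The C-type genes of the gamma cluster stood higher or level. Pcdhgc3, known for promoting dendrite branching in cortical neurons through Axin1, was the highest clustered protocadherin, with 206.9 RPKM in PGM, 195.4 in PGF, 193.9 in HM, 211.7 in HF and 215.9 in Control. Pcdhgc4, the isoform known to be required for interneuron survival, was at 165.6 RPKM in PGM, 155.8 in PGF, 160.8 in HM, 177.7 in HF and 179.4 in Control. Pcdhgc5, which is known to rise late in postnatal brain development, was at 152.8 RPKM in PGM, 143.5 in PGF, 143.7 in HM, 154.4 in HF and 153.9 in Control. Level times length was 959.7 for Pcdhgc3 and 843.3 for Pcdhgc4, both above the range of 667.5 to 709.6 of the gamma A and B genes, while Pcdhgc5 was at 709.6. The level of Pcdhgc3 is a median over transcripts, at 203.42 and 228.35 RPKM in Control, multiplied by a single length.

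In the alpha cluster Pcdhac2, known for the spacing of serotonergic axons, stood above its neighbours with 44.4 RPKM in PGM, 46.5 in PGF, 44.7 in HM, 47.7 in HF and 48.3 in Control. Pcdhac1 was at 30.8 RPKM in PGM, 32.5 in PGF, 30.5 in HM, 32.6 in HF and 33.0 in Control, within the range of the genes Pcdha1 to Pcdha12. Tph2, Slc6a4 and Fev, the defining genes of serotonergic neurons, stayed below 1 RPKM in every group, with Tph2 between 0.47 and 0.71. The 9 listed serotonergic genes summed to 70.9 RPKM in PGM, 81.8 in PGF, 85.2 in HM, 94.3 in HF and 78.7 in Control. Most of this sum came from Slc18a2, Maob and Htr1a, so it does not follow the defining genes. Slc18a2 alone was at 24.8 RPKM in PGM, 37.7 in PGF, 37.6 in HM, 48.2 in HF and 34.7 in Control.

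The name with the highest alpha values was Pcdha4-g, at 55.7 RPKM in PGM, 52.2 in PGF, 54.4 in HM, 58.7 in HF and 60.9 in Control. The lowest alpha gene was Pcdha11, at 27.1 RPKM in PGM, 28.5 in PGF, 27.3 in HM, 29.3 in HF and 29.8 in Control. Pcdha11 is the median of 3 transcripts that lay far apart, and in Control these were at 34.7, 29.8 and 6.0 RPKM. Among the genes Pcdha1 to Pcdha12, Pcdha4 was highest in Control at 36.6 RPKM, with 33.1 for PGM, 34.8 for PGF, 33.5 for HM and 35.2 for HF. Without Pcdha4-g, the 14 alpha genes spanned a 1.62-fold range in Control. Pcdha1 and Pcdha2, which followed Pcdha11 at its low end, are also medians over transcripts. In Control these were at 33.2 and 28.2 RPKM for Pcdha1 and at 33.8 and 29.1 for Pcdha2. The low end of the range therefore depends on how transcripts were combined.

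The beta genes spread more widely, with a coefficient of variation of 40.3% in Control against 22.2% for alpha and 9.51% for gamma. Without Pcdha4-g the alpha value was 12.8%. How reads of the shared exons were counted is unknown, so the spread of alpha and gamma genes is not directly comparable with that of beta genes. The highest beta gene was Pcdhb17, with 13.7 RPKM in PGM, 13.6 in PGF, 12.9 in HM, 13.9 in HF and 13.7 in Control. The lowest was Pcdhb1, the beta gene nearest the alpha cluster, with 0.97 RPKM in PGM, 1.02 in PGF, 1.48 in HM, 1.52 in HF and 1.45 in Control. Pcdhb1 lay near the limit of 1 RPKM used to keep genes. Across the 22 beta genes the level and the position along the cluster had a Spearman rho of 0.43, a description over genes that share their libraries. Pcdhb11 is the median of a transcript between 5.63 and 7.09 RPKM and one between 0.03 and 0.12.

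Several lists of marker genes for other cell types and neighbouring tissue differed between the groups. The 9 pituitary genes summed to 72.2 RPKM in PGM, 1658 in PGF, 89.995 in HM, 38.6 in HF and 73.5 in Control, with Prl and Pou1f1 listed at 0 in HF. The 14 myelin genes summed to 11646 RPKM in PGM, 14551 in PGF, 9954 in HM, 7717 in HF and 7290 in Control, and the 10 thalamic genes to 750.7, 704.5, 524.8, 422.8 and 447.4 in the same order. The 21 hypothalamic transcription factor genes summed to 214.7 RPKM in PGM, 201.1 in PGF, 244.7 in HM, 267.9 in HF and 272.7 in Control, and the 14 genes shared by most neurons to 9084, 8773, 8331, 8393 and 8177. The 10 meningeal genes summed to 145.8 RPKM in PGM, 200.1 in PGF, 181.9 in HM, 326.9 in HF and 286.95 in Control. The 5 erythroid genes summed to 2823, 3751, 2328, 4386 and 4999 in the same order. Sums over the groups ran from 28.9 in Control to 475.7 in PGF for 9 choroid plexus genes. For 13 cortical and striatal genes the sums ran from 182.4 in Control to 291.9 in PGM. Sums ran from 3422 to 3572 for 12 astrocyte genes, 648.8 to 731.6 for 8 oligodendrocyte precursor genes, 485.6 to 518.4 for 11 microglial genes and 430.9 to 502.5 for 13 endothelial and pericyte genes. Each sum follows its most abundant genes and can hide others. In the choroid plexus list Ttr alone ran from 7.01 RPKM in Control to 440.5 in PGF. Gfap was at 145.9 RPKM in PGM against 243.7 in Control. Of the 12 astrocyte genes 7 were below Control in PGM and 5 above, with a median of -0.11. Gfap was the only 1 at 1.5-fold there, where 4.62% of all genes were. In PGM 10 of 14 myelin and 8 of 10 thalamic genes were higher at 1.5-fold. Lower were 9 of 10 meningeal and 9 of 20 kept hypothalamic transcription factor genes. In PGF these counts were 13, 7, 3 and 12, where 4.04% of all genes reached 1.5-fold. In HM they were 4, 3, 7 and 1, where 1.54% did, and in HF all were 0, where 0.829% did. None of the 11 microglial genes reached it in any group. The part of tissue composition in the protocadherin differences given next was not tested, and fewer cells of a type cannot be told apart from less RNA per cell.

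The comparison of PGM with Control asked whether these genes differed in the PGM group. A difference is log2(RPKM + 0.5) of the group minus that of its reference, which understates the difference of low genes, and a gene was counted at 1.5-fold. No clustered protocadherin gene reached 1.5-fold in PGM, 0 of 59, where 4.62% of all 17481 genes did. The median difference was -0.12 over 15 alpha genes, -0.041 over 22 beta genes and -0.046 over 22 gamma genes, against 0.005 over all genes. Values lay below Control in 15 of 15 alpha, 16 of 22 beta and 22 of 22 gamma genes, and in 48.8% of all genes. With upper quartile scaling the medians were -0.15 for alpha, -0.071 for beta and -0.077 for gamma, against -0.025 over all genes. Since genes of the alpha and gamma clusters share exons, their counts are not separate observations. The comparisons of PGM, PGF, HM and HF with Control also share the Control samples, so a gene high in Control is low in all of them.

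The lowest differences in PGM were all in the beta cluster, with -0.41 for Pcdhb1, -0.28 for Pcdhb2 and -0.23 for Pcdhb11. Pcdhb2 was at 4.07 RPKM in PGM against 5.03 in Control, and in no other group was it lower than in PGM or higher than in Control. Pcdhb11 was at 2.99 RPKM in PGM against 3.58 in Control. The highest were 0.12 for Pcdhb21, at 7.16 RPKM in PGM against 6.53 in Control, 0.11 for Pcdhb13, at 3.98 against 3.65, and 0.031 for Pcdhb20, at 10.25 against 10.02. The alpha differences ran only from -0.14 for Pcdha4 to -0.069 for Pcdha12. Among gamma genes Pcdhgc4 stood apart with -0.12, while the 12 gamma A genes lay between -0.051 and -0.036.

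**Figure D3:**
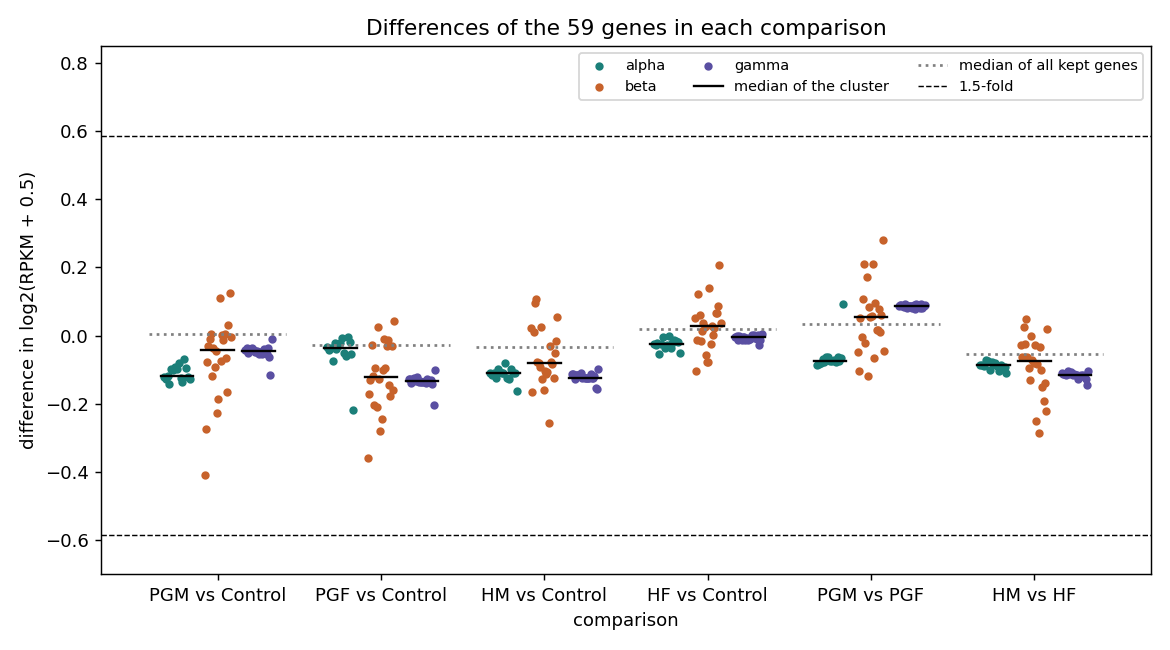
Points give the difference in log2(RPKM + 0.5) of each of the 59 genes in 6 comparisons, coloured by cluster, with a black bar at the median of the cluster, a dotted line at the median of all kept genes and dashed lines at 1.5-fold. No point reaches a dashed line, the beta genes scatter most, and the alpha and gamma genes lie in tight groups apart from Pcdha4-g and Pcdhgc4.

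In PGF the clusters were ordered differently. Against Control, 0 of 59 genes reached 1.5-fold, where 4.04% of all genes did. The median difference was -0.037 for alpha, -0.12 for beta and -0.13 for gamma, against -0.028 over all genes. Values were below Control in 15 of 15 alpha, 20 of 22 beta and 22 of 22 gamma genes, and in 55.6% of all genes. The ratio of the gamma to the alpha median, which does not depend on how the values of a group are scaled, was 4.15 in PGF, against 4.42 in Control, and it was 4.64 in PGM, 4.41 in HM and 4.53 in HF. Whether such a ratio varies this much between samples of 1 group cannot be read from the means.

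The lowest members in PGF were Pcdhb1 with -0.36, Pcdhb11 with -0.28 and Pcdhb12 with -0.24, and Pcdhb12 had 5.40 RPKM in PGF against 6.49 in Control. Only Pcdhb22 and Pcdhb9 lay above Control, by 0.043 and 0.026. Pcdhb22 had 11.2 RPKM in PGF against 10.9 in Control, and Pcdhb9 had 6.66 against 6.53. Next came Pcdha12 with -0.0053. Pcdha4-g differed by -0.22 in PGF, below the range of -0.073 to -0.0053 of the 14 other alpha genes and also below the gamma differences of -0.20 to -0.10. In HM it was again below the other alpha genes, at -0.16. In PGM and HF, at -0.13 and -0.052, it lay within their range and below every gamma gene. PGF alone was the lowest group for 21 of 22 gamma genes and 10 of 22 beta genes, and it tied with HM in Pcdhb10, while 1 of 15 alpha genes, Pcdha4-g, was lowest there. The share of all genes that were lowest in PGF was not counted, and gamma genes share exons.

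In HM, 0 of 59 genes reached 1.5-fold against Control, where 1.54% of all genes did. The median difference was -0.11 for alpha, -0.079 for beta and -0.12 for gamma, against -0.032 over all genes. Values were below Control in 15 of 15 alpha, 16 of 22 beta and 22 of 22 gamma genes, and in 59.9% of all genes. The lowest was Pcdhb15 with -0.26, at 4.52 RPKM in HM against 5.50 in Control, and every other group held it above 5 RPKM. It was followed by Pcdhb2 with -0.17, at 4.43 against 5.03 RPKM, and Pcdha4-g with -0.16. The highest were Pcdhb5 with 0.11, at 6.14 RPKM in HM against 5.66 in Control, Pcdhb4 with 0.096, at 4.48 against 4.16, and Pcdhb22 with 0.055, at 11.3 against 10.9.

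HF lay closest to Control, with 0 of 59 genes at 1.5-fold where 0.829% of all genes were. The median difference was -0.025 for alpha, 0.028 for beta and -0.0048 for gamma, against 0.020 over all genes. Values were below Control in 14 of 15 alpha genes, 7 of 22 beta genes and 17 of 22 gamma genes, and in 41.1% of all genes. Pcdhb21 was at 7.62 RPKM in HF against 6.53 in Control, a difference of 0.21, the highest of any member. Pcdhb13 followed with 0.14, at 4.07 against 3.65 RPKM, and Pcdhb4 with 0.12, at 4.57 against 4.16. The lowest were Pcdhb2 with -0.10, Pcdhb11 with -0.078 and Pcdhb12 with -0.076. HF alone held the highest value of 12 of 22 beta genes, and it tied with PGF in Pcdhb9. The share of all genes that were highest in HF was not counted. Over all 17481 genes the highest difference from Control was that of Ddx3y, a gene of the Y chromosome, in both HM and HF. It was 2.51 in HM and 2.44 in HF. The labels give no sex, and a part of sex in the protocadherin differences was not tested.

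**Figure D4:**
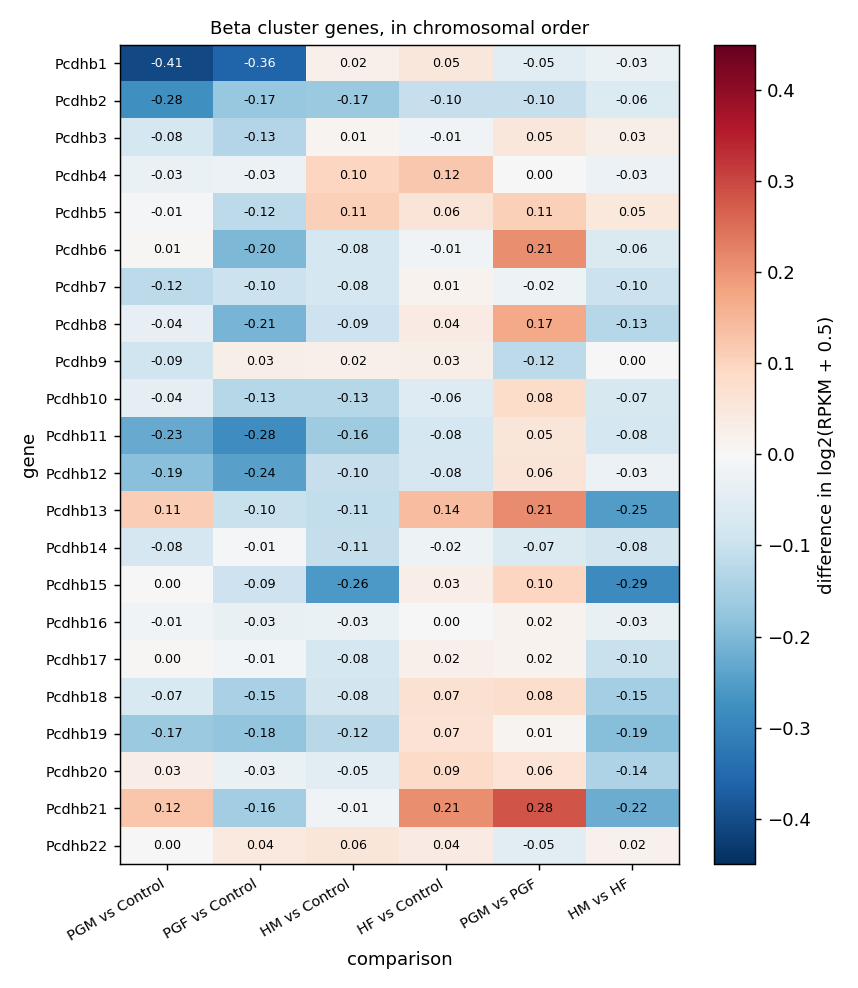
Each row is a beta gene in chromosomal order and each column a comparison, with the colour and the printed number giving the difference in log2(RPKM + 0.5). Pcdhb1 is lowest in both PGM and PGF against Control, at -0.41 and -0.36, while Pcdhb21 holds the highest differences, 0.21 for HF against Control and 0.28 for PGM against PGF.

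In PGM against PGF the alpha and gamma genes lay on opposite sides, by small amounts. Genes within each of these clusters share exons, so their counts are not separate observations, and the spread between samples is unknown. None of the 59 genes reached 1.5-fold, where 0.990% of all genes did. Alpha genes were lower in PGM in 14 of 15 cases, where 37.4% of all genes were, with a median of -0.074, and Pcdha4-g was the exception with 0.092. Gamma genes were higher in PGM in 22 of 22 cases with a median of 0.088, and beta genes in 15 of 22 with a median of 0.053. Over all genes the median was 0.034, and 62.2% were higher in PGM. With upper quartile scaling the median was -0.0005 over all genes, -0.11 for alpha, 0.022 for beta with 10 of 22 genes lower in PGM, and 0.052 for gamma. Pcdhb21 differed most, at 7.16 RPKM in PGM against 5.80 in PGF, a difference of 0.28. Pcdhb13 and Pcdhb6 followed with 0.21 each, Pcdhb13 at 3.98 against 3.37 RPKM and Pcdhb6 at 8.62 against 7.39.

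HM against HF gave lower values in all 15 alpha and all 22 gamma genes and in 19 of 22 beta genes, and 68.6% of all genes were lower. The medians were -0.087 for alpha, -0.076 for beta and -0.11 for gamma, against -0.054 over all genes. No member reached 1.5-fold, 0 of 59, where 1.68% of all genes did. Pcdhb15 was at 4.52 RPKM in HM against 5.62 in HF, a difference of -0.29, and Pcdhb13 at 3.34 against 4.07, a difference of -0.25. Pcdhb21 was at 6.46 against 7.62 RPKM, a difference of -0.22.

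Taking all groups together, the highest and lowest group means of a gene differed by a median of 1.09-fold in the alpha cluster, 1.17-fold in the beta cluster and 1.10-fold in the gamma cluster, as plain ratios. The widest was 1.57-fold for Pcdhb1, and the narrowest 1.03-fold for Pcdhb16, which was at 8.60 RPKM in PGM, 8.49 in PGF, 8.50 in HM, 8.71 in HF and 8.69 in Control. Control alone held the highest value of 14 of 15 alpha genes, and it tied with HF in Pcdha9. It held the highest value of 17 of 22 gamma genes and of 5 of 22 beta genes. The share of all genes that were highest in Control was not counted. Genes of the alpha and gamma clusters share exons, so their counts are not separate observations. Summed over its 22 genes the beta cluster was at 154.3 RPKM in PGM, 149.1 in PGF, 153.4 in HM, 163.3 in HF and 160.3 in Control. The beta genes not described above, Pcdhb3, Pcdhb7, Pcdhb8, Pcdhb10, Pcdhb14, Pcdhb18 and Pcdhb19, lay between 5.58 and 12.04 RPKM in every group.

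The nonclustered protocadherins, which have genes of their own elsewhere, and the large cadherins of the Celsr, Fat and Dchs kinds were read from a list of 19 genes. In PGM 18 of 19 were below Control with a median of -0.30, in PGF 18 of 19 with -0.37, in HM 17 of 19 with -0.24 and in HF 13 of 19 with -0.027. Of all genes, 48.8% were below Control in PGM, 55.6% in PGF, 59.9% in HM, and 41.1% were in HF. At 1.5-fold Fat4 was lower in PGM, and Fat4, Pcdh17, Pcdh19 and Dchs1 were lower in PGF, while none was in HM or HF. This is 1 of 19 in PGM, where 4.62% of all genes reached 1.5-fold in either direction, and 4 of 19 in PGF, where 4.04% did. Dchs1, named for passing 1.5-fold, had 15.2 RPKM in PGF against 24.3 in Control. Pcdh19, an adhesion protein whose human gene is linked to epilepsy, was at 37.4 RPKM in PGM, 35.1 in PGF, 41.4 in HM, 50.3 in HF and 55.1 in Control. Pcdh17 was at 76.9 RPKM in PGM, 69.6 in PGF, 81.7 in HM, 93.7 in HF and 105.0 in Control. Fat4, a giant cadherin of planar polarity, was at 6.15 RPKM in PGM, 6.51 in PGF, 7.35 in HM, 9.80 in HF and 10.1 in Control. Pcdh9, which was chosen after its values were seen, was above Control in PGM, PGF and HM, at 109.0, 118.2 and 102.4 RPKM against 95.9.

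The other cadherins had medians of -0.19 for PGM, -0.14 for PGF, -0.090 for HM and -0.043 for HF over 18 genes. At 1.5-fold Cdh1, the epithelial cadherin, was lower in PGM, PGF and HM, at 0.81, 1.31 and 1.12 RPKM against 3.01 in Control. Cdh19, a cadherin of glia, was at 3.83 RPKM in PGM, 4.95 in PGF, 4.22 in HM, 2.47 in HF and 2.45 in Control, and passed 1.5-fold in PGF and HM. That makes 1 of 18 in PGM, 2 of 18 in PGF, 2 of 18 in HM and 0 of 18 in HF. Of all genes, 4.62%, 4.04%, 1.54% and 0.829% reached 1.5-fold in the same order. Cdh24 was at 24.5 RPKM in PGM, 21.03 in PGF, 22.6 in HM, 29.6 in HF and 30.6 in Control.

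The genes that act in protocadherin promoter choice and silencing comprise CTCF, cohesin and its loaders, and enzymes of DNA and histone methylation. Of 24 kept, 19 were below Control in PGM, 20 in PGF, 20 in HM, then 12 in HF, with medians of -0.14, -0.19, -0.085 and -0.017, and none reached 1.5-fold in any of these comparisons. The shares of all genes below Control were 48.8%, 55.6%, 59.9% and 41.1% in the same order. The shares of all genes at 1.5-fold were 4.62%, 4.04%, 1.54% and 0.829%. Tet1, which oxidises 5-methylcytosine, was at 17.9 RPKM in PGM, 16.4 in PGF, 17.0 in HM, 22.5 in HF and 24.2 in Control. Tet3, an enzyme of the same kind, was at 14.1 RPKM in PGM, 13.01 in PGF, 13.1 in HM, 16.5 in HF and 18.7 in Control. Pds5b, a regulator of cohesin, was at 45.6 RPKM in PGM, 43.4 in PGF, 49.2 in HM, 53.0 in HF and 57.7 in Control. Among others, picked after their values were seen, Ctcf was at 26.8 RPKM in PGM, 27.1 in PGF, 29.8 in HM, 28.8 in HF and 31.6 in Control. Smchd1, a chromosomal protein known to silence clustered protocadherins, was at 20.0 RPKM in PGM, 19.7 in PGF, 20.8 in HM, 21.2 in HF and 22.1 in Control. Dnmt3b, the methyltransferase known to set methylation at these promoters in the embryo, stayed between 0.50 and 0.66 RPKM in every group.

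Genes of protocadherin signalling and processing, 21 in all, had medians of -0.059 for PGM, -0.029 for PGF, -0.055 for HM and 0.011 for HF. Of the 21, 1 reached 1.5-fold in each of PGM, PGF and HM, where 4.62%, 4.04% and 1.54% of all genes did. In HF 0 of 21 did, where 0.829% of all genes did. The one past 1.5-fold was Ptk2b, a kinase related to focal adhesion kinase that alpha and gamma protocadherins are known to inhibit, at 38.5 RPKM in PGM, 37.8 in PGF and 27.6 in HM, against 18.2 in Control. In HF it was at 21.5 RPKM, a difference of 0.23. Adam10, the protease that sheds their extracellular domains, was at 23.0 RPKM in PGM, 22.9 in PGF, 27.2 in HM, 26.02 in HF and 31.7 in Control. Wasf1, a subunit of the WAVE complex that binds their cytoplasmic parts, was at 25.5 RPKM in PGM, 24.9 in PGF, 26.1 in HM, 25.8 in HF and 32.4 in Control.

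Listed genes from the chromosomal region around the clusters had medians of 0.099 for PGM, 0.035 for PGF, 0.025 for HM and 0.026 for HF over 21 genes, and none reached 1.5-fold. Of all genes, 4.62%, 4.04%, 1.54% and 0.829% did so in the same order. Ik, a splicing factor gene, was at 81.3 RPKM in PGM, 85.7 in PGF, 82.2 in HM, 76.4 in HF and 70.5 in Control. Slc25a2, a single-exon ornithine transporter gene, was at 1.13 RPKM in PGM, 0.92 in PGF, 1.05 in HM, 1.03 in HF and 1.41 in Control. Cd14 was at 4.28 RPKM in PGM, 4.41 in PGF, 4.57 in HM, 4.64 in HF and 3.77 in Control.

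**Figure D5:**
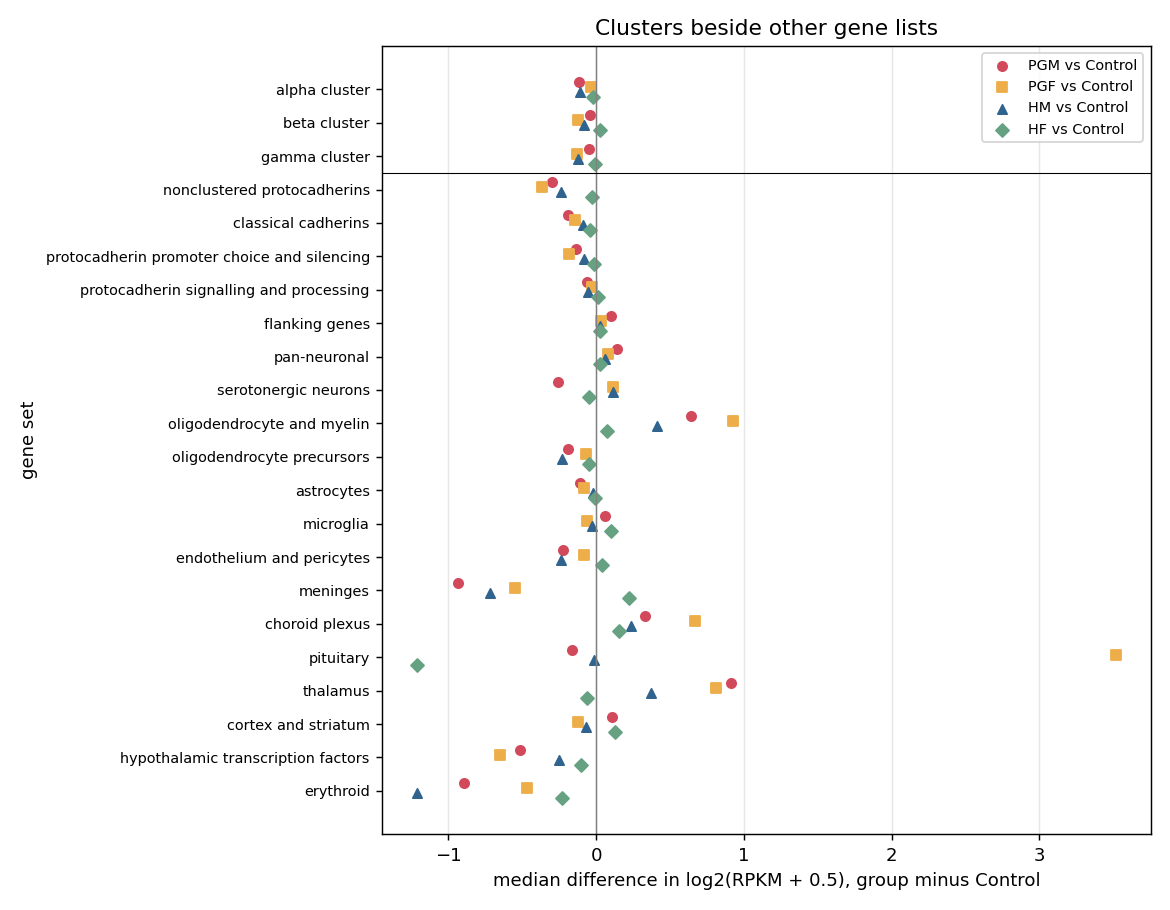
Points give the median difference in log2(RPKM + 0.5) from Control in PGM, PGF, HM and HF for the 3 clusters, above the line, and for 19 other gene lists. The 12 medians of the clusters lie between -0.13 and 0.028, while the pituitary list reaches 3.52 in PGF and the myelin list 0.93.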

How the data were processed

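Total RNA sequencing of 15 hypothalamus samples was grouped from the sample titles. The deposited values were RPKM averaged over each group by the authors, as the name of the table says, and given to 2 decimals. The submitters' processing notes name FastQC for read quality, the aligner Novoalign 2.08 and the build mm10. For the counting program, for its treatment of shared sequence and of strand, and for depth: not given in the sources used here.

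Of 49404 transcripts, 67 belonged to the 59 clustered protocadherin genes, and 7 genes had several. The median per gene name was taken, genes averaging 1 RPKM or more were kept (70.4%), and differences were taken on log2(RPKM + 0.5) and counted at 1.5-fold. A second header line inside the table, which calls its columns means, was dropped. A table of means allows no test, so differences were described, as the design foresaw for such a table. Averaging hides any sample that stands apart, and RPKM depends on what other genes take.

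Genes were named by rule: the extremes of level in each cluster, the C-type genes, the 3 largest differences in each direction against Control, and the 3 most different genes of each gene list. For the lists of cell type and tissue markers the sum of the list is given in place of these genes, with a few members that a sum rested on or hid. Further genes were added where a comparison turned on them. The members and lists were chosen with earlier results of these data known. Of 270 list entries 263 were found. Own exons were compared by 50-base words from GENCODE M21 transcripts, where the gene at the RefSeq position of Pcdha10 is named Pcdha11 and was matched by position. Only the 1.5-fold call in PGM against Control was tested on simulated data, with set changes larger than the difference of any member here. Python 3.11.15, numpy 2.4.6, pandas 2.3.3, scipy 1.17.1 and matplotlib 3.10.9 were used.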

Additional observations from a re-analysis of the deposited data

How the results depend on the processing

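The pseudocount was set to 0.1 or 1, the filter on low genes was dropped or raised to 3 RPKM, and further alternatives were the highest transcript or the mean over transcripts of a gene, upper quartile scaling, and HF in place of Control as the reference. HF as the reference was run for PGM, PGF and HM, and the other 7 settings for all 6 comparisons. In these the count of members at 1.5-fold stayed 0 and the cluster medians kept their sign. Apart from the change of reference, no cluster median moved by more than 0.0353. The tolerance of 0.1 set for such a shift exceeds most of the medians, so staying within it says nothing of stability. The largest shift came from upper quartile scaling, which gave medians of 0.052 for gamma, 0.022 for beta, -0.11 for alpha and -0.0005 over all genes for PGM against PGF. In PGM this scaling gave medians of -0.15 for alpha, -0.071 for beta and -0.077 for gamma against Control, with -0.025 over all genes, and 19 beta genes below Control. In HF it put 22 gamma genes below Control with a median of -0.015, and gave 0.018 for beta. With HF as the reference, alpha had a median of -0.087 in PGM, -0.016 in PGF and -0.087 in HM, and gamma -0.038, -0.13 and -0.11. No paired analysis was possible because the table holds 1 mean per group and no column per sample, and for the same reason no replicate could be left out. Depth is unknown, so the precision of low values such as Pcdhb1 cannot be stated, and the spread between samples that would be needed to judge differences of this size is hidden by the averages.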
